A study of Homo sapiens with 27 samples.

Results

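The genes described here encode the subunits of the 4 respiratory chain complexes and of the ATP synthase that are made from nuclear DNA. A gene was taken when its symbol began with NDUFA, NDUFB, NDUFC, NDUFS, NDUFV, UQCR, COX4I, COX5, COX6, COX7, COX8 or ATP5, or was SDHA, SDHB, SDHC, SDHD or CYC1. Assembly factors named NDUFAF, pseudogenes and antisense transcripts were left out. The array held 78 such genes on 152 probe sets, out of 19775 genes on 41097 probe sets that carry 1 gene symbol. Of the 78 genes, 33 belonged to complex I, 3 to complex II, 7 to complex III, 17 to complex IV and 18 to complex V, the ATP synthase. SDHB, UQCRFS1 and UQCRH had no probe set with a single symbol and were not analysed here.

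The respiratory chain moves electrons from NADH and succinate to oxygen and uses the energy to pump protons across the inner mitochondrial membrane. Complexes I, III and IV pump, complex II only passes electrons on, and complex V lets the protons flow back while it makes ATP. Oxygen is the final electron acceptor, at complex IV. A few subunits come from the mitochondrial DNA, and all others are transcribed in the nucleus and imported.

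The series consists of 27 arrays of 3 established human cancer cell lines, PC-3 from prostate cancer, SK-OV-3 from ovarian cancer and WM793B from melanoma. Each line was grown for 72 h under cycling hypoxia, chronic hypoxia or control conditions, with 3 biological replicates per group. Cycling hypoxia alternated 1% oxygen, in periods of 4 h and 12 h, with 4 h periods at 21% oxygen, and the last period before harvest was at 21%. Chronic hypoxia was 1% oxygen throughout, and control cells stayed at 21% oxygen. No cells carried a genetic change made for the study, each line is a single established line, and the lines were grown in different media, so a difference between lines cannot be told apart from a difference between media.

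Values are log2 GC-RMA expression values, a background-corrected and quantile-normalized scale on which a step of 1 is a 2-fold difference. They can show that a transcript took a smaller share of the array signal, but not whether a cell held less RNA in all. A value of 5 on this scale is used below as the limit for dim signals. It was not measured as a noise level, and 37.27% of all values lay at the lowest value, 2.2759. The lowest correlation between replicates of a group was 0.9935, over all probe sets of the array, the many at the floor included. The ratio of 3′ to 5′ signal ranged from 0.55 to 0.95 (log2) for ACTB and from -0.15 to 0.20 for GAPDH. Replicate 1 of SK-OV-3 under chronic hypoxia had the highest ratio for both genes. Of 8 hypoxia-responsive genes used to check the labels, among them the glucose transporter SLC2A1 and the kinase PDK1, chronic hypoxia raised 8 in SK-OV-3 cells and 7 each in PC-3 and WM793B cells. Cycling hypoxia raised 3 of these 8 in WM793B, 6 in SK-OV-3 and 7 in PC-3. The epithelial marker EPCAM averaged 11.64 in control PC-3 cells and 11.59 in control SK-OV-3 cells, but 3.43 in control WM793B cells. SOX10, a factor of the melanocyte lineage, averaged 10.43 in control WM793B cells and lay at or near the floor in the other lines, whereas the pigment gene MLANA lay at the floor in all 3 lines, WM793B included. Of 4 prostate markers, HOXB13 averaged 11.04, STEAP1 9.62 and TMPRSS2 7.32 in control PC-3 cells, while KLK3, which encodes prostate-specific antigen, averaged 4.28. Of 4 ovarian and Muellerian markers, 2 were above 5 in at least 3 arrays of SK-OV-3, and 1 each in PC-3 and WM793B. The 4 leukocyte and erythroid markers measured were below 5 in all lines.

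Where a gene had several probe sets, the one with the highest mean over all arrays stood for it. On these brightest probe sets, 71 of the 78 genes had a mean above 5, and 55 had a mean above 10. The median level of the 78 genes was 10.95, against 4.62 over all genes. Complex V had the highest median level, 11.81, followed by complex IV with 11.46, complex III with 11.25, complex II with 10.45 and complex I with 10.23. Levels of different probe sets depend on their sequences, so this order is a description of signals and not of transcript numbers. Replicates lay close together: the SD within a group of 3 had a median of 0.07 over the genes above 5, and did not exceed 0.30.

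The first question was whether uninterrupted hypoxia changed the expression of these genes. In all 3 lines most of them were lower under chronic hypoxia. Of the 78 genes, 60 (76.9%) fell and 2 rose in PC-3 cells, with a median log2 fold change of -0.39. In SK-OV-3 cells 49 (62.8%) fell and none rose, with a median of -0.39. In WM793B cells 52 (66.7%) fell and none rose, with a median of -0.42. At an unadjusted p under 0.05, 2 genes were higher in SK-OV-3 and 1 in WM793B. A gene was called at an adjusted p under 0.05 in limma's moderated test, with Benjamini-Hochberg adjustment over every probe set of the array. The falls were shallow, and few reached 2-fold: 5 genes in SK-OV-3, 3 in WM793B and 1 in PC-3, where 6.08%, 6.07% and 13% of all genes above 5 fell that far.

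The counts of genes called lower stood well above the background of the arrays. Among all genes above 5 in at least 3 arrays of the line, chronic hypoxia lowered 20% in WM793B, 26% in SK-OV-3 and 42.2% in PC-3, with median log2 fold changes of -0.05, -0.06 and -0.16. It raised 15.8%, 21% and 25.4% of them, against 0, 0 and 2 of the 78 respiratory chain genes. Because the respiratory chain genes are brightly expressed, a background of genes with a mean above 10 was added after the data had been seen. In it 24.9%, 33.5% and 41.3% were lower in the same order of lines. In this bright background 2.93%, 4.75% and 3.49% were lower by at least 2-fold, beside 3, 5 and 1 of the 78 genes.

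**Figure D1:**
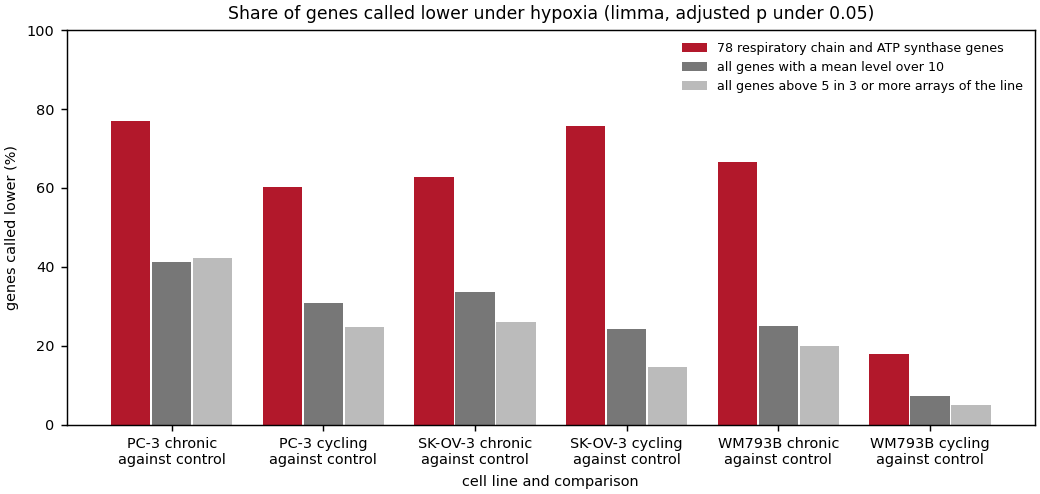
Percentage of genes called lower under hypoxia than in control cells, by cell line and comparison. Red bars stand for the 78 respiratory chain and ATP synthase genes, dark grey bars for all genes with a mean level over 10 and light grey bars for all genes above 5 in 3 or more arrays of the line. The red bar is the highest in each of the 6 comparisons, from 76.9% in PC-3 cells under chronic hypoxia to 17.9% in WM793B cells under cycling hypoxia.

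Cycling hypoxia lowered these genes too, with the largest median fall in SK-OV-3 cells. In SK-OV-3 cells 59 genes (75.6%) fell and none rose, with a median log2 fold change of -0.43. In PC-3 cells 47 (60.3%) fell and 4 rose, with a median of -0.20. In WM793B cells 14 (17.9%) fell and none rose, with a median of -0.19. The PC-3 and WM793B medians were close, so the gap between their counts does not show a weaker response in WM793B. At an unadjusted p under 0.05, 38 genes were lower and 2 higher in WM793B, and 64 lower and 0 higher in SK-OV-3 (limma). The background of all genes above 5 was 14.7% lower in SK-OV-3, 24.8% in PC-3 and 5.07% in WM793B, and that of genes with a mean above 10 was 24.2%, 30.9% and 7.26%. Higher were 16.3%, 21.8% and 6.31% of the genes above 5. The 2 comparisons of a line use the same control arrays, so their values are set side by side and are not independent. The WM793B count rested on few arrays: it was 3 without cycling replicate 1 or cycling replicate 2, 5 without cycling replicate 3, and 4 without control replicate 1 or control replicate 2.

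**Figure D2:**
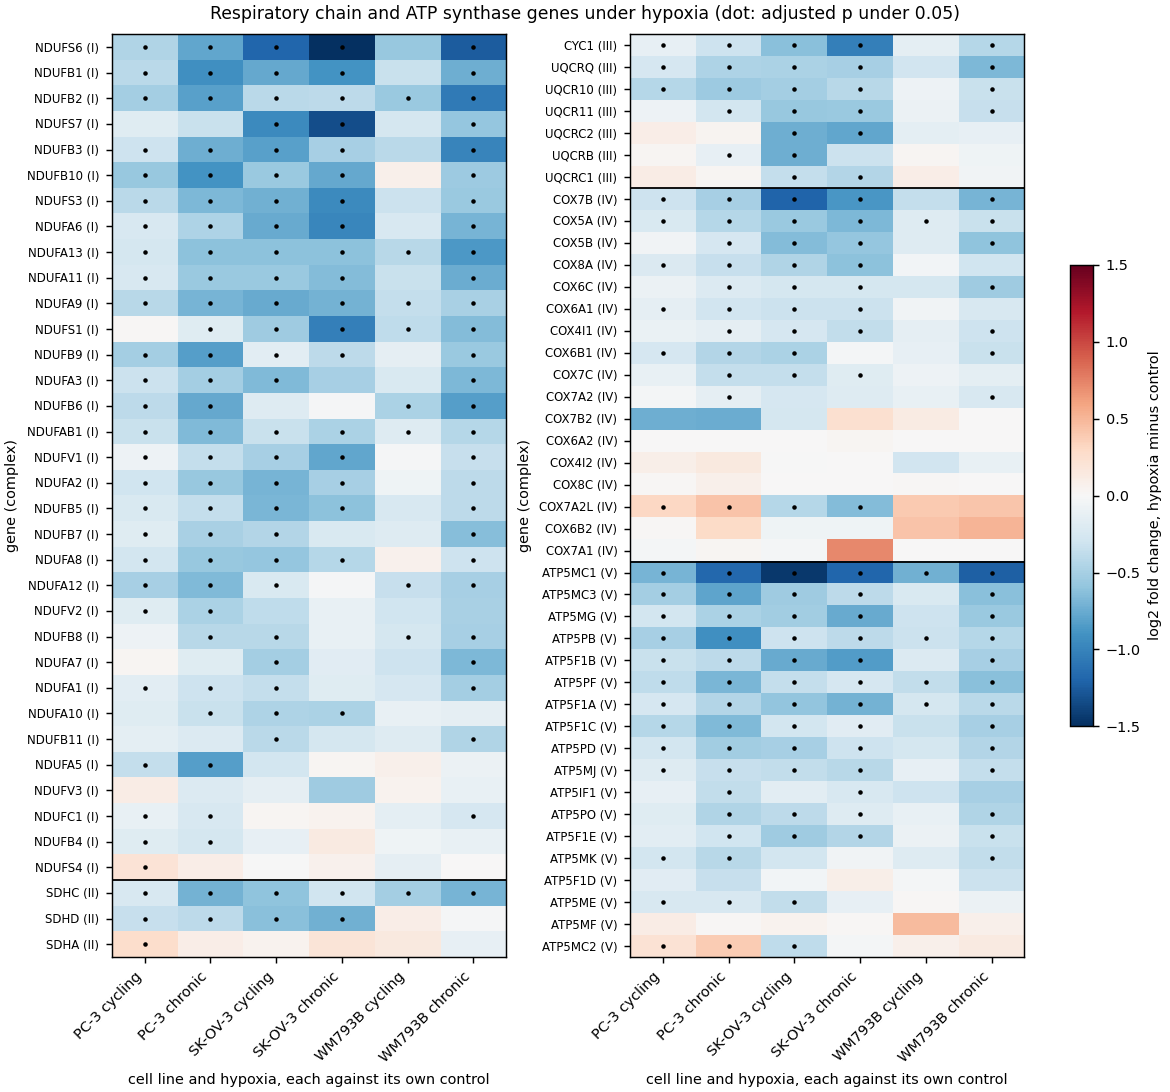
Log2 fold change of each of the 78 genes under cycling and chronic hypoxia, each against the control cells of the same line, with the complex in brackets. Blue is lower and red is higher under hypoxia on a scale from -1.5 to 1.5, a dot marks an adjusted p under 0.05, and within a complex the genes run by their mean change under chronic hypoxia, with NDUFS6, CYC1, COX7B and ATP5MC1 in the top rows of complexes I, III, IV and V.

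Chronic hypoxia lowered 39 of the 78 genes in all 3 lines, 17 in 2 lines and 10 in 1 line, and 12 genes fell in no line. Among all genes with a mean above 10, 11.7% fell in all 3 lines and 40.8% in none. Of the genes that fell in every line, 17 belonged to complex I, 1 to complex II, 4 to complex III, 5 to complex IV and 12 to complex V. Under cycling hypoxia 11 genes fell in all 3 lines, namely NDUFA9, NDUFA12, NDUFA13, NDUFAB1, NDUFB2, SDHC, COX5A, ATP5F1A, ATP5MC1, ATP5PB and ATP5PF. All 11 had to be among the 14 genes called in WM793B. That count ranged from 3 to 18 with 1 array left out, so the list depends on single WM793B arrays. The background of genes with a mean above 10 that fell in all 3 lines under cycling hypoxia was 2.79%.

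In complex I, which takes electrons from NADH, 28 of 33 genes fell in PC-3 cells, 27 in WM793B cells and 19 in SK-OV-3 cells under chronic hypoxia, and none rose. The deepest change in SK-OV-3 and WM793B cells was in NDUFS6, a small accessory subunit of the peripheral arm. In PC-3 cells its values were 10.22, 10.18 and 10.17 under chronic hypoxia, against 10.92, 11.00 and 11.00 in control cells. In SK-OV-3 cells they were 9.13, 9.004 and 9.06 under chronic hypoxia, against 10.51, 10.64 and 10.72 in control cells. In WM793B cells they were 9.39, 9.42 and 9.57 under chronic hypoxia, against 10.75, 10.87 and 10.52 in control cells. No hypoxic array overlapped the control arrays of its line. The log2 fold changes were -1.25 ± 0.12 in WM793B, -1.55 ± 0.09 in SK-OV-3 and -0.78 ± 0.02 in PC-3 (SE, n = 3 arrays per group), with adjusted p (limma) of 0.0015, 0.00012 and 4.6e-06. Under cycling hypoxia the fold changes were -1.19 in SK-OV-3 and -0.45 in PC-3, both called, and -0.57 in WM793B with an adjusted p of 0.052.

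Among the catalytic and redox subunits of complex I, NDUFV1 and NDUFS1 fell in every line under chronic hypoxia. NDUFV1 carries the site where NADH is oxidised, and had log2 fold changes under chronic hypoxia of -0.35 in WM793B, -0.78 in SK-OV-3 and -0.36 in PC-3, all called. NDUFS1, the largest iron-sulphur subunit, read 9.21, 9.23 and 9.56 in SK-OV-3 cells under chronic hypoxia, against 10.30, 10.35 and 10.44 in control cells. That is a log2 fold change of -1.03 ± 0.10, beside -0.65 in WM793B and -0.18 in PC-3 cells, all called. NDUFS1 had 5 probe sets, and 2 dimmer ones above 5 gave -0.95 and -1.35 in PC-3 cells, so the size of its change depended on the probe set. NDUFS7, an iron-sulphur subunit next to the quinone site, read 6.98, 6.85 and 6.67 in SK-OV-3 cells under chronic hypoxia and 8.15, 8.20 and 8.13 in control cells, a fold change of -1.32 ± 0.08. Its other values were -0.58 in WM793B, which was called, and -0.34 in PC-3, with an adjusted p of 0.13.

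Among the accessory subunits of the membrane arm, NDUFB2 fell to 10.16, 9.95 and 10.03 in WM793B cells under chronic hypoxia, against 11.12, 11.11 and 11.09 in control cells. Its log2 fold changes were -1.06 in WM793B, -0.40 in SK-OV-3 and -0.82 in PC-3 cells. NDUFB10 fell by 0.55 in WM793B, 0.77 in SK-OV-3 and 0.90 in PC-3 cells, and NDUFB1, NDUFB3, NDUFB5 and NDUFB9 were also called lower in every line. At the other end, NDUFS4, an accessory subunit that matters for the stability of the peripheral arm, was not called lower in any comparison. Its fold changes under chronic hypoxia were 0.10, 0.06 and 0.00 in PC-3, SK-OV-3 and WM793B cells, and under cycling hypoxia it rose by 0.21 ± 0.03 in PC-3 cells (adjusted p = 0.0067, limma).

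Complex II oxidises succinate, and here its subunits moved apart. SDHA, the flavoprotein that binds succinate, was not called lower in any line. It read 11.00, 10.92 and 10.98 in PC-3 cells under cycling hypoxia, against 10.66, 10.78 and 10.69 in control cells, a rise of 0.26 ± 0.05 on the log2 scale (adjusted p = 0.012, limma). In contrast SDHC, a membrane anchor, fell in all 6 comparisons with control. Its fold changes under chronic hypoxia were -0.70 in WM793B, -0.30 in SK-OV-3 and -0.71 in PC-3 cells, and under cycling hypoxia -0.51, -0.60 and -0.24. SDHD, the other anchor, fell in SK-OV-3 (-0.72) and PC-3 cells (-0.39) under chronic hypoxia, but had -0.01 in WM793B cells, with overlapping arrays. The only probe set of SDHA and the brightest one of SDHC have names that mark a possible match to more than 1 transcript.

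In complex III, which passes electrons from quinol to cytochrome c, the lines differed in the core proteins. UQCRC2, one of them, fell in SK-OV-3 cells. It read 10.79, 10.79 and 10.77 under cycling hypoxia and 10.70, 10.75 and 10.75 under chronic hypoxia, against 11.51, 11.53 and 11.51 in control cells. In PC-3 cells it read 10.78, 10.69 and 10.71 under chronic hypoxia, against 10.70, 10.64 and 10.72 in control cells, and the groups overlapped. The log2 fold change under chronic hypoxia was -0.78 in SK-OV-3, 0.04 in PC-3 and -0.13 in WM793B, and the response differed between lines with an adjusted p of 1.19e-08 (limma's F-test of the interaction over all 27 arrays). A second probe set of UQCRC2 gave -0.80 in SK-OV-3 and 0.05 in PC-3 cells under chronic hypoxia. UQCRC1, the other core protein, likewise had fold changes of -0.44 in SK-OV-3, which was called, 0.02 in PC-3 and -0.06 in WM793B. CYC1, which holds the haem of cytochrome c1, fell in all 3 lines, by 1.03 in SK-OV-3, 0.43 in WM793B and 0.31 in PC-3 cells on the log2 scale.

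In complex IV, the cytochrome c oxidase, 7 of 17 genes fell under chronic hypoxia in WM793B, 9 in SK-OV-3 and 10 in PC-3 cells. Only 11, 12 and 11 of the 17 were above 5 in at least 3 arrays of these lines, in the same order. COX5A, COX5B, COX4I1, COX6C and COX7B fell in every line. In SK-OV-3 cells COX7B read 10.60, 10.57 and 10.40 under cycling hypoxia and 10.78, 10.91 and 10.88 under chronic hypoxia, against 11.63, 11.76 and 11.79 in control cells. Its fold changes were -1.20 ± 0.07 under cycling and -0.87 ± 0.07 under chronic hypoxia. COX4I1, the common form of subunit 4, had smaller fold changes of -0.31 in WM793B, -0.37 in SK-OV-3 and -0.14 in PC-3 cells under chronic hypoxia.

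COX7A2L, known for joining complexes III and IV into supercomplexes, was called in opposite directions in 2 lines. In PC-3 cells it read 10.57, 10.70 and 10.62 under cycling and 10.68, 10.85 and 10.72 under chronic hypoxia, against 10.40, 10.20 and 10.36 in control cells. In SK-OV-3 cells it read 10.65, 10.64 and 10.73 under cycling and 10.46, 10.45 and 10.44 under chronic hypoxia, against 11.17, 11.09 and 11.03 in control cells. The hypoxic arrays were thus all above control in PC-3 and all below it in SK-OV-3. Under chronic hypoxia the fold change was -0.65 ± 0.04 in SK-OV-3 and 0.43 ± 0.07 in PC-3, both called, and 0.42 ± 0.12 in WM793B, with an adjusted p of 0.069. The difference between SK-OV-3 and PC-3 in this response was -1.08 on the log2 scale (adjusted p = 9.64e-07, limma). The PC-3 rise under cycling hypoxia, 0.31, was not called without cycling replicate 1, cycling replicate 2, cycling replicate 3, control replicate 2 or control replicate 3, with fold changes of 0.34, 0.27, 0.31, 0.25 and 0.33.

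In complex V, chronic hypoxia lowered 15 of 18 genes in PC-3 cells and 13 each in SK-OV-3 and WM793B cells. ATP5F1A and ATP5F1B, the alpha and beta subunits of the catalytic head, had fold changes of -0.41 and -0.50 in WM793B, -0.70 and -0.83 in SK-OV-3, and -0.44 and -0.39 in PC-3 cells, all called. ATP5PB, which encodes subunit b of the peripheral stalk, read 12.24, 12.26 and 12.28 in PC-3 cells under chronic hypoxia, against 13.16, 13.22 and 13.16 in control cells. Its fold change was -0.92 in PC-3, beside -0.43 in WM793B and -0.39 in SK-OV-3 cells.

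Subunit c, which forms the rotating ring of the ATP synthase in the membrane, is encoded by 3 genes whose mature proteins are identical, ATP5MC1, ATP5MC2 and ATP5MC3. These 3 genes behaved differently. The probe sets of ATP5MC1 and ATP5MC2 were among the 42 of the 78 whose names mark a possible match to more than 1 transcript, and neither gene had a second one above 5. ATP5MC1 read 8.99, 9.04 and 9.06 in PC-3 cells under cycling and 8.57, 8.47 and 8.60 under chronic hypoxia, against 9.76, 9.78 and 9.65 in control cells. In SK-OV-3 cells it read 6.85, 7.07 and 7.06 under cycling and 7.24, 7.35 and 7.15 under chronic hypoxia, against 8.39, 8.48 and 8.45 in control cells. In WM793B cells it read 7.91, 8.02 and 8.15 under cycling and 7.44, 7.50 and 7.63 under chronic hypoxia, against 8.75, 8.75 and 8.72 in control cells. Every hypoxic array lay below every control array of its line. The log2 fold changes under chronic hypoxia were -1.18 ± 0.05, -1.19 ± 0.08 and -1.22 ± 0.07 in PC-3, SK-OV-3 and WM793B cells, and under cycling hypoxia -0.70, -1.45 and -0.72. ATP5MC1 was among the 3 deepest falls of the 78 genes in each of these 6 comparisons.

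ATP5MC2 did not follow it. It read 11.14, 11.24 and 11.22 in PC-3 cells under cycling and 11.35, 11.36 and 11.36 under chronic hypoxia, against 10.88, 11.01 and 11.05 in control cells, a rise of 0.22 ± 0.05 under cycling and of 0.38 ± 0.05 under chronic hypoxia. Its fold changes under chronic hypoxia in SK-OV-3 (-0.03) and WM793B cells (0.13) were not called, and under cycling hypoxia it fell in SK-OV-3 cells, by 0.38 on the log2 scale. The PC-3 rise under cycling hypoxia was not called without cycling replicate 2, cycling replicate 3 or control replicate 2, with fold changes of 0.20, 0.21 and 0.24. ATP5MC3 fell under chronic hypoxia in every line, by 0.63 in WM793B, 0.39 in SK-OV-3 and 0.79 in PC-3 cells on the log2 scale. In each line ATP5MC1 was the dimmest of the 3 probe sets, which does not rank the transcripts, since they are different probes.

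**Figure D3:**
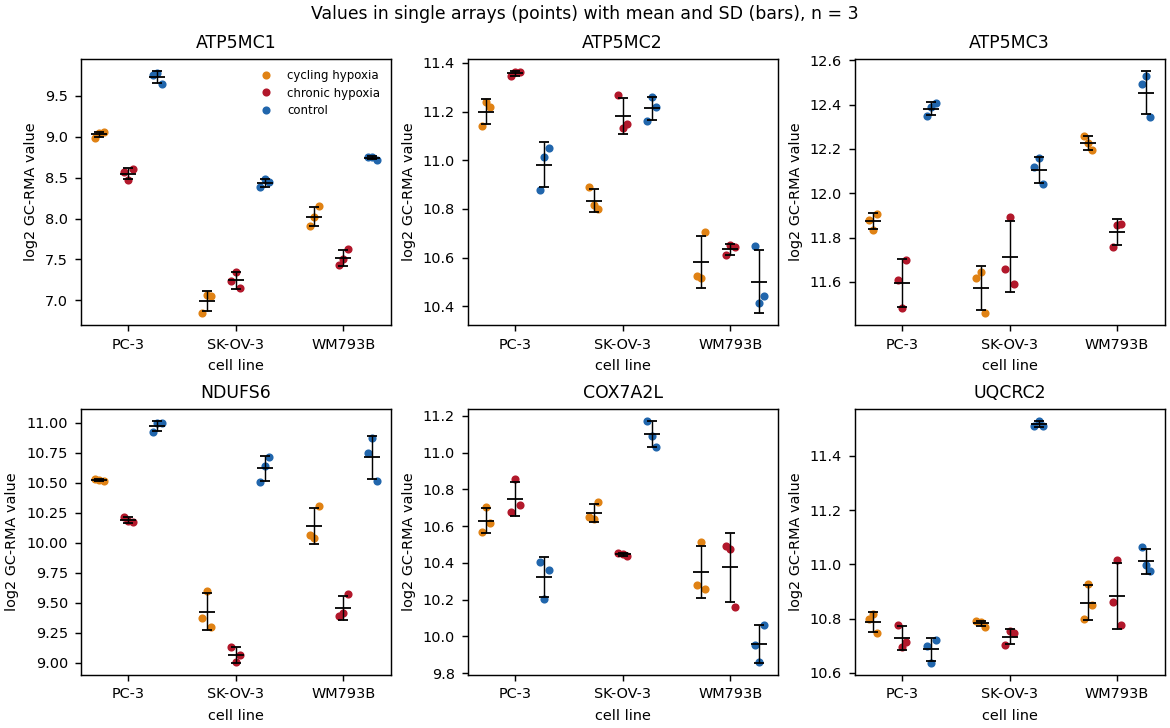
Log2 GC-RMA value in each array for ATP5MC1, ATP5MC2, ATP5MC3, NDUFS6, COX7A2L and UQCRC2, with the 3 cell lines along the axis and cycling hypoxia, chronic hypoxia and control from left to right in each line. Points are arrays and bars are the mean and SD (n = 3); ATP5MC1 and NDUFS6 were lower under chronic hypoxia in all lines, ATP5MC2 and COX7A2L were higher in PC-3, and UQCRC2 was lower in SK-OV-3.

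The promoters of ATP5MC1 and NDUFS6, both among the deepest falls, and of ATP5MC2, which rose in PC-3 cells, are shown because they put the contrast beside the sequence. Each window runs from 250 bases before to 50 bases after the transcription start, 5′ to 3′ on the gene's strand, as given by RefSeq on GRCh38.p14. They lie at chr17:48892537-48892836 on the + strand for ATP5MC1, at chr12:53676034-53676333 on the - strand for ATP5MC2, and at chr5:1801157-1801456 on the + strand for NDUFS6. ATP5MC2 has 3 listed windows, of which the first is shown. Capitals mark any of 6 motifs, found on either strand: CGCATGCG, the core of NRF1 sites; ACGTG and GCGTG, cores of hypoxia response elements; CCGGAAG, a core of ETS factor sites; AAGATGGC, a core of YY1 sites; and CCAAT.
ATP5MC1: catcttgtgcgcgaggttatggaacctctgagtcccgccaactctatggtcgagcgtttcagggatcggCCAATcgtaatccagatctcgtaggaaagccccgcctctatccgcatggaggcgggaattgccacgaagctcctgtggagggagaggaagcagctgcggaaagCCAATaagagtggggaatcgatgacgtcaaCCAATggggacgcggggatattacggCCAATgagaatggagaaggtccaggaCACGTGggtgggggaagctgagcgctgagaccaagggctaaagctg
ATP5MC2: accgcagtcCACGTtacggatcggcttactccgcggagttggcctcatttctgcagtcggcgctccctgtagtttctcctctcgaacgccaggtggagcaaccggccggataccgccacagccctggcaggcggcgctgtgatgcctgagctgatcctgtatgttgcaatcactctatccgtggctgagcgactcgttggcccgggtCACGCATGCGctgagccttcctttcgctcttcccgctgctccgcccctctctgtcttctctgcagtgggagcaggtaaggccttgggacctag
NDUFS6: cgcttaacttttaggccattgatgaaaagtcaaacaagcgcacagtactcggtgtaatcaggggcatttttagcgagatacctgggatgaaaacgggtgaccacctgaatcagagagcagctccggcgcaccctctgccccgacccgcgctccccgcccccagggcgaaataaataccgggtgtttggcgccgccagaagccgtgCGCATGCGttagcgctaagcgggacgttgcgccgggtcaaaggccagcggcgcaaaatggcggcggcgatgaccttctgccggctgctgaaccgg
The ATP5MC1 window held 4 CCAAT boxes, 3 of them within 78 bases before the start, and a CACGTG just after the start, in which ACGTG reads on both strands and overlaps itself. The ATP5MC2 window held CGCATGCG at position -41, overlapped by a GCGTG read on the other strand, and an ACGTG read on the other strand at position -241. The NDUFS6 window held CGCATGCG at position -45 and none of the other motifs.

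Over the whole family, 66 of the 78 genes matched a promoter window by symbol, and 27305 genes did so in all. CGCATGCG was in 10 of the 66 windows (15.2%), against 2.19% of all windows. The 10 were those of NDUFA8, NDUFB4, NDUFS6, NDUFS7, SDHD, COX6A1, ATP5F1C, ATP5MC2, ATP5ME and ATP5PF. AAGATGGC was in 15.2%, against 3.03% of all windows, and CCGGAAG in 27.3%, against 10.7%. ACGTG was in 25.8%, against 21.6%, GCGTG in 45.5%, against 36.3%, and CCAAT in 34.8%, against 35.7%. These are matches of letters, given without a test, and genes with CGCATGCG stood among those that fell and those that did not.

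The second question was how cycling differed from chronic hypoxia. Of the 78 genes, 47 (60.3%) were called higher under cycling than under chronic hypoxia in PC-3 cells and none lower, with a median difference of 0.19 on the log2 scale. Among all genes above 5 in that line 29.1% were higher and 10.4% lower, and among genes with a mean above 10, 28.8% were higher. In WM793B cells 14 (17.9%) were higher and none lower, with a median of 0.24. At an unadjusted p under 0.05, 2 genes were lower in PC-3, and in WM793B 53 were higher and 1 lower (limma). There 5.23% of genes above 5 were higher and 3.74% lower, and 6.35% of genes with a mean above 10 were higher. In SK-OV-3 cells 7 were higher and 6 lower, with a median of -0.04, while 16.5% of all genes above 5 were higher and 11.7% lower, and 18.6% of those with a mean above 10 were higher. Of the 78 genes, 71 had a higher mean under cycling than under chronic hypoxia in PC-3, 70 in WM793B and 30 in SK-OV-3 cells.

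Complex I had the highest median of this difference in PC-3 and WM793B cells, 0.28 and 0.32. There 24 (72.7%) and 10 (30.3%) of its 33 genes were called higher under cycling than under chronic hypoxia. In PC-3 cells complex III had a similar share called higher, 71.4%. ATP5MC1 was 0.48 ± 0.05 higher in PC-3 and 0.50 ± 0.07 higher in WM793B cells, and NDUFS6 0.34 and 0.68 higher. In SK-OV-3 cells, CYC1 read 10.01, 9.91 and 9.98 under cycling, against 9.54, 9.48 and 9.67 under chronic hypoxia, a difference of 0.40 ± 0.05. NDUFS1 (0.50) and NDUFS7 (0.37) were also called higher in SK-OV-3 cells on their brightest probe sets. The brightest probe set of NDUFS1 with no mark of a second match gave -0.30 (adjusted p of 0.642), and that of NDUFS7 lay at the floor. By contrast, ATP5MC2 (-0.35), NDUFA7 (-0.34) and COX7B (-0.33) were called lower. The SK-OV-3 count of 13 fell to 8, 5 and 6 without cycling replicate 1, 2 or 3 and to 6 without chronic replicate 2. The WM793B count of 14 fell to 3, 1 and 8 without cycling replicate 1, 2 or 3, and to 2 and 1 without chronic replicate 1 or 2.

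**Figure D4:**
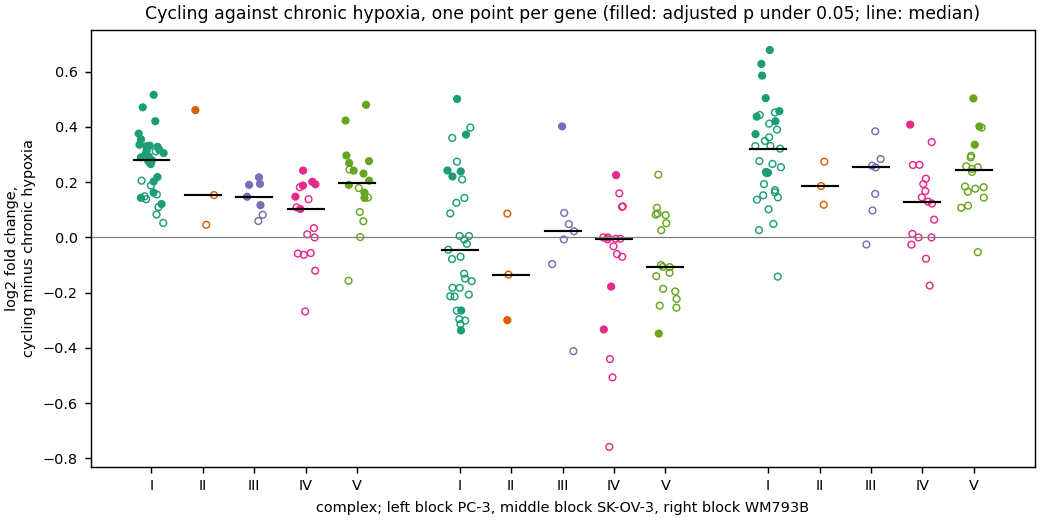
Log2 fold change of cycling minus chronic hypoxia for each gene, by complex, with PC-3 in the left block, SK-OV-3 in the middle and WM793B on the right. Filled points had an adjusted p under 0.05 and lines are medians; most points lie above 0 in PC-3 (71 of 78) and WM793B (70 of 78), and 30 of 78 do in SK-OV-3.

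The difference between lines was tested directly over all 27 arrays. The response to chronic hypoxia differed between lines in 46 of the 78 genes (59%), and that to cycling hypoxia in 41 (52.6%), at an adjusted p under 0.05 for limma's F-test of the interaction. All genes above 5 gave 67% and 46.7%, and genes with a mean above 10 gave 74.8% and 61.4%, so the share under chronic hypoxia was below both and that under cycling hypoxia between them. Under cycling hypoxia the differences mostly ran one way. The SK-OV-3 response differed from that of WM793B in 34 genes (43.6%) and was the lower one in each, and it was lower than that of PC-3 in 30 (38.5%) and higher in 3. Among genes with a mean above 10, SK-OV-3 was lower than WM793B in 28.4% and higher in 19%, and lower than PC-3 in 24.7% and higher in 20.4%. The WM793B response was lower than that of PC-3 in 3 of the 78 genes (3.8%) and higher in 5 (6.4%). Among genes with a mean above 10 it was lower in 9.57% and higher in 13.5%. Under chronic hypoxia SK-OV-3 was lower than PC-3 in 20 genes and higher in 20, with 29.1% and 28.2% in the same background.

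A test of the cycling-against-chronic difference between lines, added after the data had been seen, gave 36 of 78 genes (46.2%), against 38.8% of all genes above 5 and 43.6% of genes with a mean above 10. SK-OV-3 differed from WM793B in 36 genes (46.2%) and was lower in each, where the same background had 18.4% lower and 15.6% higher. It was lower than PC-3 in 32 (41%) and higher in 1, where the background had 17.8% and 14.8%. WM793B and PC-3 differed in 1 gene, where the background had 5.73% lower and 5.03% higher in WM793B.

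As a description across the 71 genes above 5 in all lines, which are not independent, the fold changes under chronic hypoxia had a Pearson r of 0.71 between PC-3 and WM793B, 0.25 between PC-3 and SK-OV-3, and 0.41 between SK-OV-3 and WM793B.

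Control cells of the 3 lines differed in most of these genes, as they did in most genes above 5. PC-3 cells had higher values than SK-OV-3 cells in 45 genes and lower in 21, and WM793B cells had lower values than PC-3 cells in 45 and higher in 15. WM793B cells were lower than SK-OV-3 cells in 33 and higher in 21. Of all genes above 5, WM793B and PC-3 cells differed in 73.7%, WM793B and SK-OV-3 cells in 77.6%, and PC-3 and SK-OV-3 cells in 75.9%. The shares of the 78 genes were near these, lower for WM793B and SK-OV-3 cells and higher for the other pairs. Median differences of the 78 genes were -0.33 for WM793B minus PC-3, -0.11 for WM793B minus SK-OV-3 and 0.37 for PC-3 minus SK-OV-3. Those of all genes above 5 were -0.0079, -0.0604 and 0.0003. SDHA averaged 8.88 in WM793B cells, 10.71 in PC-3 cells and 9.04 in SK-OV-3 cells, and the WM793B and SK-OV-3 values were not called different (adjusted p = 0.0725, limma). COX6A1 averaged 11.91 in WM793B cells, 13.68 in PC-3 cells and 12.77 in SK-OV-3 cells, and all 3 pairs differed.

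Several subunits of complex IV have paralogues that other tissues use. COX6A2 and COX7A1 are the heart and muscle forms, COX4I2 is known from lung, and COX6B2, COX7B2 and COX8C from testis. COX4I2, COX6A2, COX6B2 and COX8C were below 5 in all 9 groups, and COX7A1 had group means of 3.36 or less. COX4I2, described elsewhere as a subunit induced by hypoxia, read 3.20, 3.36 and 3.16 in PC-3 cells under chronic hypoxia, against 3.09, 3.09 and 3.09 in control cells, all below 5. COX7B2 was the exception. In SK-OV-3 cells it read 8.64, 8.72 and 8.38 under cycling and 9.08, 9.31 and 8.86 under chronic hypoxia, against 8.71, 8.94 and 8.89 in control cells. In WM793B cells it lay at 2.45 in all control arrays, and in PC-3 cells at 4.51, 3.58 and 3.36. The difference of control cells was -6.40 for WM793B minus SK-OV-3 and -5.03 for PC-3 minus SK-OV-3 on the log2 scale, with values near the floor on the lower side. COX7B2 was not called changed by hypoxia in SK-OV-3 cells (limma, adjusted p of 0.42 under cycling and 0.44 under chronic hypoxia).

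**Figure D5:**
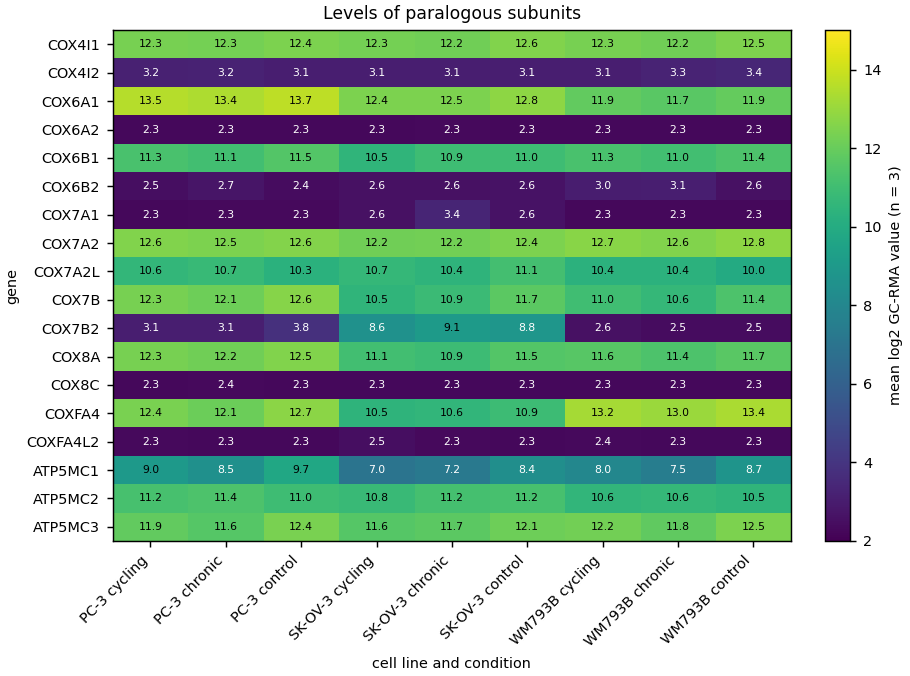
Mean log2 GC-RMA value (n = 3) of paralogous subunits in the 9 groups, with cycling hypoxia, chronic hypoxia and control from left to right in each line. COX7B2 lies above 8 in SK-OV-3 and below 4 in the other lines, while COX4I2, COX6A2, COX6B2, COX8C and COXFA4L2 stay dark in all groups.

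NDUFA4 and its paralogue NDUFA4L2 are listed as COXFA4 and COXFA4L2 in the annotation used, so they fell outside the 78 genes and were read beside them. COXFA4, a subunit of complex IV, fell under chronic hypoxia by 0.65 in PC-3 and 0.33 in WM793B cells on the log2 scale, and had -0.35 in SK-OV-3 cells with an adjusted p of 0.16. COXFA4L2, known as a gene induced by hypoxia, lay at or near the floor in all 9 groups, with a highest single value of 2.81 in a SK-OV-3 array under cycling hypoxia. ATP5MF, a member, was also below 5 on its only single-symbol probe set.

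Where a gene had further probe sets above 5, they mostly moved as the brightest one did. Among genes called under chronic hypoxia, 33 of 36 such probe sets had the same sign in PC-3 cells, 28 of 28 in WM793B cells and 32 of 32 in SK-OV-3 cells. Under chronic hypoxia 2 genes had probe sets called in opposite directions in PC-3 cells. ATP5F1C, the gamma subunit of the central stalk, fell by 0.65 to 0.68 on 3 bright probe sets, and rose by 1.56 on a dim one that averaged 5.08 under chronic hypoxia and 3.53 in control cells. NDUFB4 fell by 0.27 on its bright probe set and rose by 1.27 on a dim one, which averaged 5.28 under chronic hypoxia and 4.01 in control cells.

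The genes that build the complexes were described by lists of known factors. Of 17 assembly factors of complex I, 4 fell in WM793B, 9 in SK-OV-3 and 15 in PC-3 cells under chronic hypoxia, with medians of -0.26, -0.82 and -0.94, and 1 rose in WM793B. Under cycling hypoxia 2, 4 and 8 fell, beside 5.07%, 14.7% and 24.8% of all genes above 5 in the same lines. TMEM126B, needed for the membrane arm, fell in all 6 comparisons, by 0.74 in WM793B, 1.02 in SK-OV-3 and 1.00 in PC-3 cells under chronic hypoxia. NDUFAF4 fell by 0.99 in SK-OV-3 and 1.98 in PC-3 cells, and had -0.21 in WM793B cells. Of 20 assembly factors of complex IV, 12, 9 and 7 fell and 1, 0 and 2 rose under chronic hypoxia in PC-3, SK-OV-3 and WM793B cells. COA7 averaged 5.35 ± 0.72 under chronic hypoxia in PC-3 cells, against 7.55 ± 0.10 in control cells (SD, n = 3), a fold change of -2.21 (-2.06 in SK-OV-3 and -0.85 in WM793B). In PC-3, SK-OV-3 and WM793B cells, 4, 1 and 4 of 6 listed factors of complex III fell, 3, 3 and 1 of 4 of the ATP synthase, and 2, 1 and 0 of 4 of complex II. Of all genes above 5, chronic hypoxia lowered 42.2%, 26% and 20% in these lines. Several of the shares in these short lists were near or below that background, as for complex I factors in WM793B and complex III factors in SK-OV-3.

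Cytochrome c, the carrier between complexes III and IV, also fell under chronic hypoxia. CYCS averaged 9.80 under chronic hypoxia and 11.35 in control cells of SK-OV-3, 12.07 and 12.78 in PC-3, and 12.78 and 13.65 in WM793B, and it also fell under cycling hypoxia in each line. Of the 18 electron carrier genes, 11, 9 and 5 fell under chronic hypoxia in PC-3, SK-OV-3 and WM793B cells, beside 42.2%, 26% and 20% of all genes above 5. No mitochondrially encoded subunit had a symbol in the annotation, so the 13 of them were not analysed here.

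Among 15 regulators of these genes, TFAM, which packages mitochondrial DNA and starts its transcription, fell under chronic hypoxia in all lines, by 0.67 in WM793B, 0.47 in SK-OV-3 and 1.64 in PC-3 cells. In SK-OV-3 cells the coactivator PPARGC1A averaged 4.30 ± 0.80 under cycling and 3.38 ± 0.30 under chronic hypoxia, against 6.25 ± 0.10 in control cells (SD, n = 3), and lay near the floor in the other lines. NRF1, GABPA and ESRRA were not called under chronic hypoxia in any line. In all, 6, 4 and 1 of the 15 fell and 2, 2 and 1 rose under chronic hypoxia in PC-3, SK-OV-3 and WM793B cells. Of all genes above 5, 42.2%, 26% and 20% fell in these lines, so the regulators' share was near or below that background. BNIP3 and BNIP3L, receptors for the removal of mitochondria, rose under chronic hypoxia in every line, BNIP3 by 2.91 in WM793B, 2.68 in SK-OV-3 and 1.56 in PC-3 cells. Both belong to a list of 11 mitochondrial protease and quality control genes. Under chronic hypoxia 5, 2 and 3 of these rose and 3, 5 and 2 fell in PC-3, SK-OV-3 and WM793B cells. Of all genes above 5, 25.4%, 21% and 15.8% rose in these lines. In SK-OV-3 cells BNIP3 and BNIP3L were the only ones of the list that rose.

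Proliferation markers moved differently in the lines, beside the falls described above. Under chronic hypoxia PCNA fell by 1.59 in PC-3 and 2.33 in WM793B cells on the log2 scale, and MCM2 by 1.60 and 1.64. In SK-OV-3 cells neither was called, and MKI67 averaged 7.90 under chronic hypoxia against 6.11 in control cells. Of the 6 markers, 3 fell and 2 rose in PC-3, 3 rose in SK-OV-3 and 2 fell in WM793B cells under chronic hypoxia. Of all genes above 5, 42.2%, 26% and 20% fell and 25.4%, 21% and 15.8% rose in PC-3, SK-OV-3 and WM793B cells. The PC-3 counts were thus near the background, and a list of 6 genes gives only coarse shares. Their part in the changes of the respiratory chain genes was not tested.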

How the data were processed

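RNA of 27 cultures was measured on Affymetrix U133 Plus 2.0 arrays. The authors made the deposited log2 values from the scanned arrays with GC-RMA, per the labels and the methods, and no filter was applied to the table (54675 probe sets). Groups follow the labels. A platform annotation paired 41097 probe sets with 1 gene symbol, and probe sets with several symbols or none were left out. The probe set with the highest mean over all arrays stood for its gene. limma 3.58.1 (R 4.3.3) was fitted per cell line over 9 arrays and 3 conditions, with Benjamini-Hochberg adjustment over all probe sets and a threshold of 0.05. Interactions were F-tests over 27 arrays. Many probe sets lay at the floor with no spread, so the prior degrees of freedom were only 0.378 to 0.402, and the test relied mostly on each probe set's own replicates. Labels call the 3 arrays of a group biological replicates, and nothing says how separate the cultures were, so p-values measure the spread between these arrays.

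Named were paralogues and tissue forms, catalytic subunits, the 3 largest called changes of each comparison, the genes called in all lines or with the clearest line differences, and genes with opposed probe sets; UQCRC2's further probe set, promoters and list genes were chosen after values were seen. The members and gene lists were chosen with earlier results of these data known. The alternatives were another probe set rule, filters, normalization, a variance trend, a replicate block, a joint fit and leaving out each array. The cycling-against-chronic interaction and the background of genes with a mean above 10 were chosen after seeing the data. Replicate numbers did not pair the arrays, with correlations of same-numbered deviations of -0.10 to 0.30. The fits were tested on simulated data. Promoter sequences are RefSeq's (GRCh38.p14).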

Additional observations from a re-analysis of the deposited data

Results flagged for a closer look

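Listed here are the 5 of the 78 genes whose response to each kind of hypoxia differed most clearly between the cell lines (smallest adjusted p in limma's F-test of the interaction over 27 arrays), and the genes called in opposite directions in different lines. Differences below are log2 fold changes of one line minus those of another.

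Under chronic hypoxia UQCRC2 gave an adjusted p of 1.19e-08, with SK-OV-3 lower by 0.82 than PC-3 and by 0.66 than WM793B. CYC1 gave 1.2e-07, with differences of -0.71 from PC-3 and -0.60 from WM793B. COX7A2L gave 4.78e-07, with differences of -1.08 from PC-3 and -1.07 from WM793B. ATP5PB gave 4.34e-07 and ran the other way, with the fall less deep by 0.53 in SK-OV-3 and by 0.49 in WM793B than in PC-3. NDUFB2 gave 2.8e-06, with the fall less deep in SK-OV-3 by 0.42 than in PC-3 and by 0.67 than in WM793B. For NDUFB2 the difference of WM793B minus PC-3, -0.24, was also called, so all 3 lines were separated.

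Under cycling hypoxia UQCRC2 gave 4.55e-08, with SK-OV-3 minus PC-3 at -0.84 and SK-OV-3 minus WM793B at -0.58. Its difference of WM793B minus PC-3, -0.25, was also called, so all 3 lines were separated. COX7B gave 6.45e-06 (-0.89 and -0.85), ATP5MC1 9.97e-06 (-0.74 and -0.73), UQCRB 1.09e-05 (-0.76 and -0.77), COX7A2L 5.71e-05 (-0.73 and -0.82) and ATP5MC2 7.24e-05 (-0.60 and -0.46). NDUFA8 gave 9.62e-06 and likewise separated all 3 lines. Its differences were -0.29 for SK-OV-3 minus PC-3, -0.64 for SK-OV-3 minus WM793B and 0.34 for WM793B minus PC-3. These lines were grown in different media, and the part of the medium in any of these differences was not tested.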

How the results depend on the processing

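The 3 deepest falls and the largest rises of each comparison with control kept their direction under the alternatives run. Their calls were not always kept. Over all comparisons, cycling against chronic included, alternatives with all arrays kept the call in 233 cases, lost it in 18 and reversed the sign in 2. With 1 array left out, the call was kept in 162 cases and lost in 48. Among all calls, 25 changes had the opposite sign on the gene's brightest probe set ending in _at, which averaged below 5 for 23 of them, and 4 of these were called there: in PC-3, ATP5F1C under chronic hypoxia (1.56) and in cycling against chronic hypoxia (-1.01), and NDUFB4 under chronic (1.27) and cycling hypoxia (0.95). The counts of genes called moved as follows. The variation filter of the methods kept 36 of the 78 genes, and gave 31 calls for chronic and 26 for cycling hypoxia against control in PC-3, 26 for cycling against chronic there, 26 and 29 for chronic and cycling hypoxia against control in SK-OV-3, 28 for chronic in WM793B, and 17, 17 and 20 interactions for chronic, cycling and cycling against chronic. Probe sets ending in _at alone covered 65 genes, and gave 25 calls for cycling against chronic in PC-3; 29 for chronic, 32 for cycling and 8 for cycling against chronic in SK-OV-3; and 30, 8 and 8 in WM793B. Fewer genes were tested in both. On such probe sets the cycling-minus-chronic difference of SK-OV-3 was -0.30 for NDUFS1, against 0.50 above, and the cause was not tested. It was -0.012 for NDUFS7, against 0.37 above, on a probe set at the floor (mean 2.29), which is no reading of the gene. A joint fit of 27 arrays gave 26 calls for cycling against chronic in SK-OV-3, 36 for cycling against control in WM793B and 45 for cycling against chronic there. With the replicate number as a block, counts were 8 for cycling against chronic in SK-OV-3 and, in WM793B, 5 for cycling against control and 6 for cycling against chronic. Leaving out 1 array at a time gave 60 to 61, 38 to 44 and 34 to 43 calls in PC-3 (chronic, cycling, cycling against chronic), 41 to 45, 40 to 47 and 5 to 10 in SK-OV-3, 42 to 55, 3 to 18 and 1 to 14 in WM793B, and 41 to 48, 34 to 42 and 33 to 39 interactions. Median centring or renewed quantile normalization shifted an array by at most 0.03 on the log2 scale, as a median over all probe sets. Most values of each array lay at or below 5, so this median describes dim signals and not the scaling of the 78 genes. The precision is limited by 3 arrays per group and by values near the floor.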
